A study of Saccharomyces cerevisiae with 24 samples.

Results

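The TKP/TY features are the places in the annotated genome of the yeast strain W303 where the authors marked open reading frames (ORFs) with high similarity to the gag and pol genes of Ty retrotransposons. They were taken by their label alone, and the annotation held 86 of them among 6264 features, or 1.37%. The other features were mostly ORFs, 5613 of them on the nuclear chromosomes. The TKP/TY features covered 164718 bp, which was 1.34% of the nuclear bases.

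The study behind the annotation used ChIP-seq, in which DNA bound to a tagged protein is pulled down and sequenced, to map Uls1, a Snf2 family translocase, and the topoisomerase Top2. Its 24 libraries fall into 12 groups of 2, and an immunoprecipitate and an input form separate groups. They are Uls1-FLAG in WT cells treated with 100 µM acriflavine (ACF), the same without ACF, Top2-HA in cells lacking ULS1 with 250 µM ACF and without it, and Top2-HA in WT cells with 250 µM ACF and without it, each after 2 h. All cells grew in YPD medium, the Top2-HA strains carry an extra tagged copy of TOP2 under its own promoter, and each library pools independent ChIP replicates. No library value was analysed here, and each position below is a single annotated value with no replicates.

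Ty elements are retrotransposons that copy themselves through RNA and resemble retroviruses without an envelope. Each full element has a long terminal repeat at both ends and, between them, gag, which encodes the particle protein, followed by pol, which encodes protease, integrase, reverse transcriptase and RNase H. In Ty1 to Ty4 ribosomes reach pol by slipping forward 1 base near the end of gag. Families Ty1 to Ty4 are known to insert next to genes transcribed by RNA polymerase III, such as tRNA genes, whereas Ty5 inserts into silent chromatin.

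How gag and pol meet sets how an ORF search cuts an element, so the junction of an element from each of the 3 families whose spacing recurs below is printed here. The letters come from the S288C reference, build R64, each read 5′ to 3′ on the strand of the element. W303 letters were not used here. In the Ty1 and Ty2 lines capitals mark the 7 bases centred on the skipped base, the stop codon that ends the gag ORF and, where it lies in the window, the first ATG of the pol ORF. In the Ty3 line they mark that stop codon and that ATG alone.
YDRCTy1-2, Ty1, end of gag, chr4:882593-882637, minus strand: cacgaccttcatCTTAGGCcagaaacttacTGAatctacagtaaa
YDRCTy1-2, Ty1, start of the pol ORF, chr4:882112-882138, minus strand: ttcattcatcgaATGcttgcgcatgcc
YBLWTy2-1, Ty2, chr2:31196-31263, plus strand: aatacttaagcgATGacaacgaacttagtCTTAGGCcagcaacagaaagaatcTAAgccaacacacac
YILWTy3-1, Ty3, chr9:206493-206595, plus strand: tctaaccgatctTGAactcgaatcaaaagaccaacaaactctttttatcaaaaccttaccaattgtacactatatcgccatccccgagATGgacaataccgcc

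The 7 bases in capitals were found at the junction in 29 of 29 Ty1 elements and in 10 of 10 Ty2 elements with an annotated join. In the Ty2 element the ATG stood before the stop of gag, so an ORF read from ATG to stop overlapped gag by 44 bp. In the Ty3 element the ATG followed 73 bp after the gag stop, and in the Ty1 element 478 bp after it. These 3 spacings are the marks by which a gag and a pol feature of W303 can be read as neighbours in an element.

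A pair of lengths, 1323 and 4041 bp, accounted for most TKP/TY features, and the others were spread. The median was 1323 bp, and the range ran from 30 to 4041 bp. A length of exactly 1323 bp was found for 35 features, or 40.7%, and a length of exactly 4041 bp for 13. These 48 features made up 55.8% of the 86. There were 35 lengths in all, and 29 features had a length that no other feature shared. By contrast, the most frequent length among nuclear ORFs, 363 bp, was shared by 19 ORFs, or 0.338%. Of the nuclear ORFs 7 had a length of 1323 bp and 0 of 5613 had a length of 4041 bp. All 86 lengths were multiples of 3, against 98.4% of nuclear ORFs.

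The size classes were set at 800 to 1500 bp for gag and at 3000 bp to under 4500 bp for pol, with longer features read as gag and pol in 1 frame. By this rule 51 features were of gag size (59.3%), 19 of pol size (22.1%), 11 lay between the classes (12.8%) and 5 were shorter than gag (5.81%). No feature reached 4500 bp. The 13 copies of 4041 bp tied as the longest features, and the next were 3777 bp on chromosome 4 and 3699 bp on chromosome 12. The shortest were 30 bp on chromosome 3, 45 bp on chromosome 1 and 357 bp on chromosome 16.

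Most of the features had the length of an ORF in the 50 Ty elements of S288C, the reference strain. In S288C an ORF of 1323 bp was the gag ORF of 30 of 31 Ty1 elements, and an ORF of 4041 bp was the pol ORF of 11 of 13 Ty2 elements. Of the 86 features 65 had exactly the length of such an ORF. Lengths found in Ty1 alone accounted for 38 features, in Ty2 alone for 16, in Ty3 for 5, in Ty4 for 3 and in Ty5 for 2, and 1 feature of 1437 bp had a length seen in Ty1 and in Ty2. The other 21 features had 20 lengths that no S288C element showed. An equal length does not by itself name a family. A feature of 927 bp between PDR3 and UTP20 on chromosome 2 had the length of a Ty5 ORF, but S288C has a Ty1 element in that interval.

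For Ty1 and Ty2 the other ORF was rarely marked. The pol ORF of 3468 bp that 25 S288C Ty1 elements have was the length of 2 features in W303, beside the 35 of Ty1 gag length. The gag ORF of 1317 bp that 10 S288C Ty2 elements have was the length of 1 feature, beside the 13 of Ty2 pol length. For Ty3, all 3 features of gag length had a pol-sized neighbour, as described next.

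**Figure D1:**
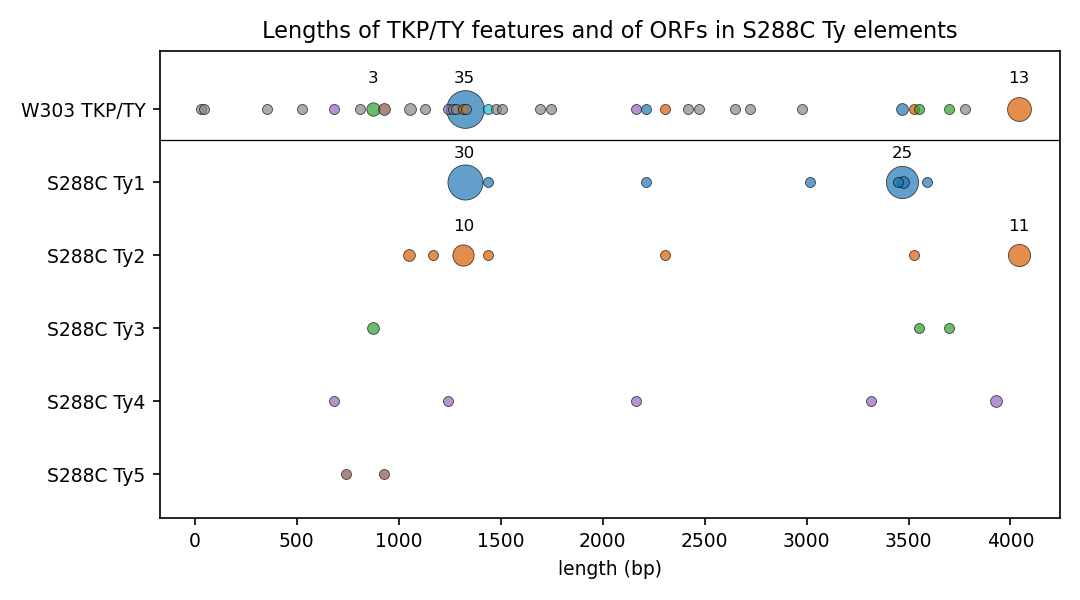
Lengths in bp on the x axis, with a circle for each length and its area growing with the number of W303 TKP/TY features in the top line and of S288C Ty elements with an ORF of that length in the lower lines; numbers are given above 2. The 35 features of 1323 bp stand above the Ty1 gag ORFs and the 13 of 4041 bp above the Ty2 pol ORFs, while few W303 features stand above the 25 Ty1 pol ORFs of 3468 bp. Grey circles are lengths seen in no S288C element, and the other colours stand for the family that shares the length.

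None of the 86 features carries a strand in the annotation, so the order of a gag-sized and a pol-sized neighbour was read in its place. With at most 200 bp between them or overlapping, 4 pairs were found, and these 4 are counted as the likely full elements. This limit admits the Ty2 and Ty3 spacings but not the 478 bp of Ty1. The pair on chromosome 14 lay between CUS2, a splicing factor gene, and MRPL10, which encodes a mitochondrial ribosomal protein. Its 1317 bp feature (97454 to 98770) and 4041 bp feature (98727 to 102767) overlapped by 44 bp, the Ty2 spacing, and 9 S288C Ty2 elements had both lengths and that overlap.

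The other 3 pairs had a gap of 73 bp, the Ty3 spacing, and each held an 873 bp feature, the length of the gag ORF of both S288C Ty3 elements. On chromosome 9, between CAB2, a gene of coenzyme A synthesis, and AIR1, an RNA surveillance gene, the features were 873 bp (195770 to 196642) and 3552 bp (196716 to 200267), the lengths of YILWTy3-1 of S288C. On chromosome 12, between HAP1, a haem-responsive transcription factor gene, and the uncharacterised YLR257W, they were 873 bp (634504 to 635376) and 3699 bp (635450 to 639148). These were the lengths of YGRWTy3-1, which S288C carries on chromosome 7. On chromosome 4, between OMS1 and HIM1, the order was turned round, with 3777 bp (1099501 to 1103277) before 873 bp (1103351 to 1104223). No S288C element had a pol ORF of 3777 bp.

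Outside the pairs stood 47 gag-sized and 15 pol-sized features. A wider limit of 1000 bp gave 7 pairs. One of the added pairs, on chromosome 10, had 1323 bp and 3468 bp with a gap of 478 bp, lengths and spacing found in 24 S288C Ty1 elements. Counting pairs by the lengths and gap of an S288C element also gave 4, namely 3 of the pairs above and this one, without the chromosome 4 pair. The remaining 2 had gaps of 314 and 477 bp, which no S288C element with those lengths showed. The pairs with gaps of 478 and 314 bp share the same 3468 bp feature, so the 7 pairs are not 7 separate elements.

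Most features of 1323 or 4041 bp without a partner of gag or pol size within 1000 bp had free sequence beside them for the rest of an element. Features of other lengths were not assessed for room. In S288C a Ty1 gag ORF of 1323 bp has a median of 293 bp of element before it and 4302 bp after it. Of the 33 features of 1323 bp without a partner 26 had this much sequence free of other features on their sides. In 4 of the other 7 the larger free side was 4251 to 4264 bp, and in 3 it was 478, 1736 and 2103 bp. A Ty2 pol ORF of 4041 bp has a median of 1564 bp before it and 354 bp after it in S288C, and 12 of 12 features of that length without a partner had this room. With sequence between neighbouring features given to 1 of them only, 37 of these 45 features had room, against 38 when it was counted for both.

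Joined wherever they lay at most 1000 bp apart, the 86 features formed 68 loci, of which 54 held 1 feature, 12 held 2, 1 held 3 and 1 held 5. The locus with 5 was at the right end of chromosome 16, after RRP9, with features of 3468, 1056, 1056, 357 and 1509 bp. The locus with 3 was on chromosome 10 between BNA1, a gene of NAD synthesis, and YJR030C, with 1323, 3468 and 1323 bp. In the locus between SRD1 and MAK32 on chromosome 3, features of 1479 and 1323 bp lay 313 bp apart.

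**Figure D2:**
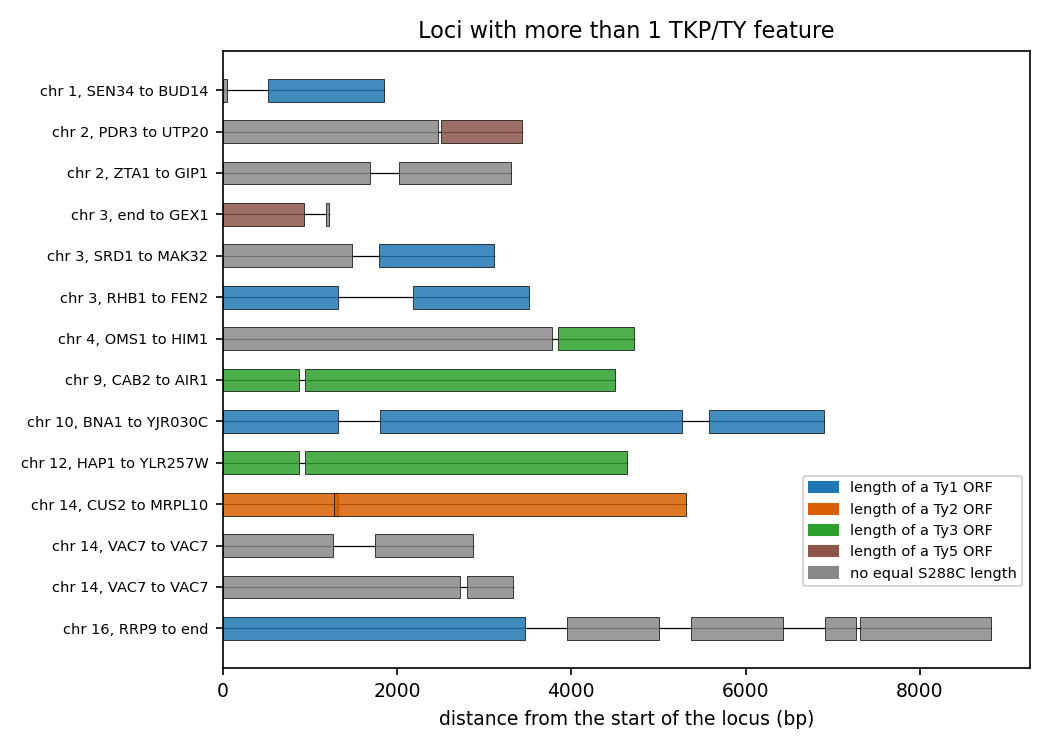
The 14 loci with more than 1 TKP/TY feature, one to a line and named by chromosome and flanking ORFs, with distance from the start of the locus in bp on the x axis. Bars are features, coloured by the S288C family that has an ORF of the same length, and lines are the sequence between them. The pairs on chromosomes 4, 9 and 12 share a gap of 73 bp, and the pair on chromosome 14 overlaps by 44 bp.

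All 16 nuclear chromosomes held a TKP/TY feature. Chromosome 16 had 12 features in 8 loci, 14% of all features against 7.93% of nuclear ORFs. Its count includes the features at the edges of reordered ORF blocks, described below. Chromosome 4, the longest, had 10 features and the most loci, 9, which was 13.2% of loci against 13% of ORFs. Chromosomes 6 and 8 had 1 feature each, and chromosome 8 had 0.177 loci per 100 kb. Chromosome 3 had the most, 1.17 per 100 kb, and the value over all 16 was 0.553. Chromosome 11 had 3 loci in W303, against 0 elements in S288C.

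Of the 32 chromosome arms 9 had no locus. By the annotated centromeres, these were the left arms of chromosomes 1, 4, 5, 6, 7, 8 and 12 and the right arms of chromosomes 9 and 14. Most of them were the shorter arm of their chromosome. The longest were the left arm of chromosome 7, with 493913 bp and 0 loci, against 7 loci in 598073 bp on the right arm, and the left arm of chromosome 4, with 449099 bp and 0 loci, against 9 loci in 1125919 bp on the right arm. In all, 44 of 68 loci were on a right arm, or 64.7% (exact binomial 95% interval 52.2 to 75.9, which covers counting error only, here and below), against 57.4% of nuclear ORFs, a share that this interval includes. The only locus of chromosome 6, counted as right, lies between YFL003C and YFL002C, which have left-arm names in S288C. Its arm depends on where the centromere of chromosome 6 is annotated, which was not checked.

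Distances to the chromosome ends were close to those of ORFs. The median distance of a locus to the nearest end was 226007.5 bp, against 211601 bp for ORFs. Within 30000 bp of an end lay 3 loci, 4.41% (interval 0.919 to 12.4), against 5.43% of ORFs. These were the locus of 5 features on chromosome 16, 1134 bp from the right end, a locus on chromosome 3, 2476 bp from the left end, and a feature of 1437 bp on chromosome 8, 7524 bp from the right end. On chromosome 16 the last ORF before that end, YPR137W, has YPR138C as its neighbour in S288C, as described below. Whether the end is one of the strain or of the assembly was not tested, and without chromosome 16 there were 2 such loci. The locus on chromosome 3 had features of 927 and 30 bp, and 927 bp is the length of an ORF in YCLWTy5-1, the Ty5 element that S288C carries on that chromosome. The 1437 bp feature had the gag length of YHRCTy1-1, which S288C carries on chromosome 8.

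Counted by loci over all chromosomes, distances to the centromere were also close to those of ORFs, with a median of 203921 bp for loci and 215971 bp for ORFs. The median was lower, 147688.5 bp, over features in place of loci. It was 145279 bp over loci without chromosome 16, for which no ORF value was computed. Within 20000 bp lay 4 loci, 5.88% (interval 1.63 to 14.4), against 5.67% of ORFs. The nearest was a 4041 bp feature 5392 bp from the centromere of chromosome 6, between MSH4, a meiotic recombination gene, and SPB4, an RNA helicase gene. The next were the locus of 2475 and 927 bp on chromosome 2 at 11608 bp, between PDR3, a regulator of drug resistance, and UTP20, and the locus on chromosome 1 at 12786 bp, between SEN34, a tRNA splicing endonuclease subunit gene, and BUD14. On chromosome 6 MSH4 and SPB4 have left-arm names in S288C, YFL003C and YFL002C, but the annotation puts their locus right of the centromere. Its distance, and its place among the 4 loci, depend on where that centromere is annotated, which was not checked. The median over the 4 likely full elements alone was 507843 bp.

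**Figure D3:**
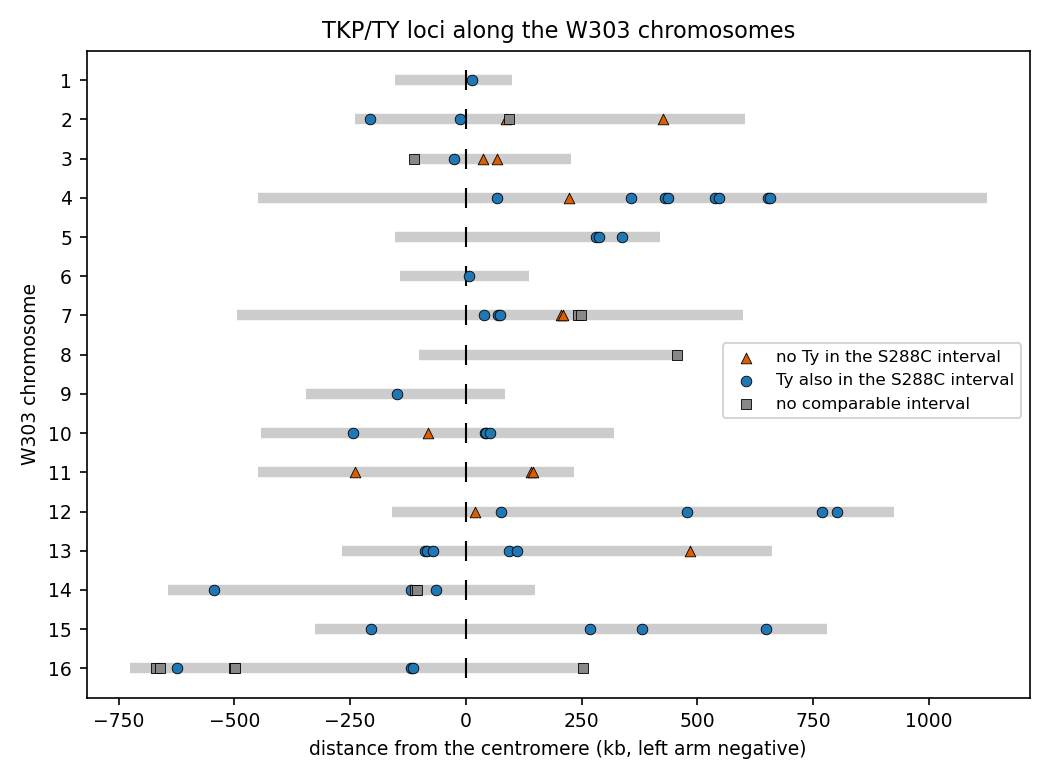
The 68 TKP/TY loci on the W303 chromosomes, which are drawn as bars with the centromere at 0 and distance in kb on the x axis. Triangles are the 13 loci in intervals with no Ty in S288C, circles the 43 loci in intervals that hold a Ty in S288C as well, and squares the 12 loci with no comparable interval. By the annotated centromeres, the left arms of chromosomes 1, 4, 5, 6, 7, 8 and 12 and the right arms of chromosomes 9 and 14 hold no locus. The locus of chromosome 6 lies between ORFs with left-arm names in S288C.

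No TKP/TY locus overlapped an ORF. The nearer flanking ORF was a median of 1280.5 bp away, with a range of 328 to 6760 bp. Around the 68 loci were 44 different pairs of flanking ORFs with a strand on both sides. Of these 25 pairs pointed the same way (56.8%, interval 41 to 71.7, against 48.1% of all neighbouring ORF pairs). Pairs that pointed away from each other numbered 11 (25%, interval 13.2 to 40.3, against 26.1%), and pairs that pointed towards each other 8 (18.2%, interval 8.19 to 32.7, against 25.9%). Each interval included the share among all ORF pairs.

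The 4 likely full elements had 8 flanking ORFs, of which 3 were on the strand of the element (37.5%, interval 8.52 to 75.5). HAP1 and YLR257W were both on the strand of the pair between them, and CUS2 was on that of the chromosome 14 pair. CAB2, AIR1, OMS1, HIM1 and MRPL10 were on the opposite strand. For 48 loci an orientation could be read, from neighbours, from the position of an ORF in S288C described next, or from room on 1 side alone. The last rule could be tried on 23 features whose S288C position gives the strand. It read 13 of them, and all 13 with the same strand. It also read both features of these lengths whose strand the order of neighbours gives, 1 of them with the opposite strand, in the chromosome 10 locus of 3 features. On chromosome 16 it oriented 2 neighbouring features of 1323 bp into the same 6838 bp, which would not hold the rest of both. Of the 48 loci 25 were on the plus and 23 on the minus strand. At 42 of their 92 sides with a stranded ORF, that ORF was on the strand of the locus (45.7%, interval 35.2 to 56.4). Over the 32 loci with an orientation not read from room it was 27 of 63 sides (42.9%, interval 30.5 to 56). Loci between the same ORFs share them, so an ORF can be counted more than once. The binomial intervals take the sides as independent, which these are not.

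The flanking ORFs tie these loci to the Ty elements of S288C. Both nearest named ORFs were those of an S288C Ty element for 31 of 68 loci, 45.6% (interval 33.5 to 58.1), and at least 1 was for 47 loci, 69.1%. The 31 loci met 25 of the 50 S288C elements. Because some ORFs are annotated in a single strain, the intervals between ORFs that have the same name and chromosome in both were compared as well. There were 5471 intervals between ORFs that are neighbours in both strains. Of these 34 held a TKP/TY feature in W303 and a Ty element or Ty gene in S288C, 11 held a TKP/TY feature alone, 8 a Ty in S288C alone, and 5418 neither.

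In the 34 intervals with a Ty in both strains, most distances were the same to the base. The interval was equally long in 21 of 34, and over all 5471 intervals this held for 82.2%. These 34 intervals held 51 features, and 29 of the 51 had the exact length of an S288C Ty ORF and stood at the same distance from the left ORF. They matched 12 of 13 Ty2 elements, 12 of 31 Ty1 elements, 2 of 3 Ty4 elements, 1 of 2 Ty3 elements and YDR170W-A, a Ty gene that lies outside the annotated elements. The Ty2 cases included the 4041 bp feature before LEU2, a gene of leucine synthesis, at 2377 bp from YCL021W-A in both strains. They also included the 4041 bp feature between ECM21 and ATP1, a gene of the mitochondrial ATP synthase, at 2908 bp from ECM21 in both, which is the Ty2 element printed above. Between MSS4 and GCD6 a 4041 bp and a 1323 bp feature stood at 2821 and 12041 bp from MSS4 in both strains, and the second is the Ty1 element printed above.

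Other matches were partial. Between MFM1 and GRX5 on chromosome 16, S288C has the Ty4 element YPLCTy4-1 with ORFs of 3315 and 2163 bp, where W303 had 1242 and 2163 bp. The interval was 8815 bp in W303 and 8814 bp in S288C, and the 1242 bp feature ended 1836 bp before GRX5, as did the 3315 bp ORF. A gag ORF of 1242 bp is found in another Ty4 element of S288C. Between MLH2 and YLR036C a 1323 bp feature stood 4929 bp from MLH2, in an interval of 7064 bp in both strains. There the reference has YLR035C-A, of 3468 bp at 983 bp from MLH2, a Ty gene outside the annotated elements. Between POR1, the mitochondrial porin gene, and VAC7 and between NDJ1 and ITR2, the features of 2649 and 2979 bp began at the same distance as S288C pol ORFs of 3450 and 3468 bp.

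In 11 intervals W303 had TKP/TY features where S288C had no Ty. All 11 were longer in W303, by 5532 to 11172 bp with a median of 5965 bp. Intervals longer by over 4000 bp were 0.274% of all 5471, or 15, and 14 of the 15 held a TKP/TY feature. In 4 intervals a single 1323 bp feature came with an excess near the length of a Ty1 element, whose median in S288C was 5918 bp. The excess was 5921 bp between ARP10 and TMN2, 5917 bp between AIM22 and YJL045W, 5929 bp between PMU1 and PGM1, and 5929 bp between DFG5, a cell wall gene, and RNT1, the RNase III gene. The DFG5 to RNT1 interval measured 6461 bp in W303 and 532 bp in S288C.

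The excess was 5532 bp with the 1323 bp feature between DUR1,2, the urea amidolyase gene, and ERV15. It was 6497 bp with the one between TCM62 and a GIP1 copy that is shorter than the S288C gene, 6877 bp with the 1479 and 1323 bp features between SRD1 and MAK32, and 7763 bp with features of 1746 and 1329 bp between SIS2 and AIM29.

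A single 4041 bp feature between TEN1, a telomere capping gene, and LOT6 came with an excess of 5965 bp, and the median length of S288C Ty2 elements was 5959 bp. Between RHB1 and FEN2 on chromosome 3, 2 features of 1323 bp stood 863 bp apart and the excess was 11172 bp. The left of these had 4529 bp free on its left and the right had 5647 bp free on its right. Between VOA1 and CLB1, a B-type cyclin gene, features of 1323 and 2211 bp stood 1736 bp apart, with an excess of 5974 bp. In S288C the lengths 1323 and 2211 bp, 1737 bp apart, are those of YLRWTy1-3 at HAP1.

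The reverse was found in 8 intervals, where S288C had a Ty and W303 had no TKP/TY feature. All 8 were shorter in W303, with differences of -37233 to -4837 bp and a median of -6246 bp. Intervals shorter by over 4000 bp were 0.201% of all, or 11, and 10 of the 11 held an S288C Ty. Between ESF1 and KEI1 541 bp remained in W303, against 6464 bp in S288C, and between ADY4 and ECM22 2056 bp, against 7975 bp. Between CLB6, a B-type cyclin gene, and CLD1 W303 had 2370 bp and S288C 7207 bp, and this is the S288C site of YGRWTy3-1, whose lengths W303 showed beside HAP1. The largest difference was between RNH203 and ASP3-4, where 13 other S288C genes also have no feature of their name and chromosome in W303. This stretch lies by the rDNA, of which the authors found a partial fragment in their W303 reference. Whether the difference is one of the strain or of the assembly was not tested.

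**Figure D4:**
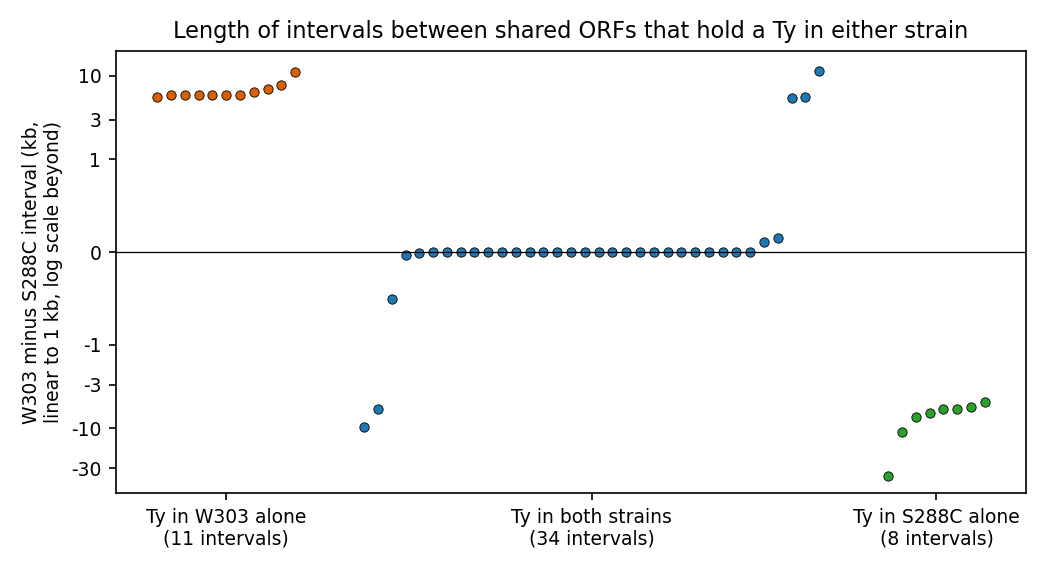
Length of the interval in W303 minus its length in S288C, in kb, for the 53 intervals between shared ORFs that hold a Ty in either strain, sorted within each class. The 11 intervals with a TKP/TY feature in W303 alone lie at 5532 bp and above, 21 of the 34 with a Ty in both lie at 0, and the 8 with a Ty in S288C alone lie at -4837 bp and below.

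In other intervals both strains had Ty elements but of different lengths or in a different number. At HAP1 W303 has the Ty3-length pair and S288C a Ty1 element, in intervals of 7395 bp in W303 and 7902 bp in S288C. Their gag ORFs stood at different distances from HAP1, 653 bp in W303 and 193 bp in S288C. The S288C element has 293 bp before its gag ORF, so it overlaps the end of HAP1 as annotated there. The distances and interval lengths of the strains therefore need not start from the same base of HAP1. Between CUS2 and MRPL10 W303 has the Ty2-length pair, read as plus, and S288C the Ty1 element YNLCTy1-1 on the minus strand. These intervals were 7162 bp in W303 and 7053 bp in S288C. Between OMS1 and HIM1 W303 has both the Ty3-spaced pair and a 1323 bp feature 4797 bp before HIM1, at which distance S288C has the gag ORF of YDRWTy1-4, and the W303 interval is longer by 5436 bp. The largest excess of this class, 11592 bp, was between BNA1 and YJR030C, with 5 features (2421, 1323, 1323, 3468 and 1323 bp) in W303, against 2 elements in S288C. Between PRP39 and RRN11, a gene of RNA polymerase I transcription, W303 had 2 features of 1323 bp, against 1 element in S288C, and was longer by 5582 bp. Further, between CUR1 and KRE6, a gene of cell wall glucan synthesis, W303 had 1 feature of 1323 bp and S288C 2 elements, and W303 was shorter by 5931 bp. Between PMD1 and RTR1 on chromosome 5, W303 had 2 features of 1323 bp in 10489 bp, against 20113 bp in S288C, and 6 S288C genes of that interval had no feature of their name and chromosome.

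tRNA genes were annotated on chromosomes 1 to 7 of W303, and 30 loci lie there. Within 2000 bp of a tRNA gene were 15 of the 30 loci, 50% (interval 31.3 to 68.7), against 10.3% of ORFs on the same chromosomes. The nearest was a tRNA-Phe gene 309 bp from the Ty3-spaced pair between OMS1 and HIM1. Next came tRNA-Gln at 392 bp from the 1323 bp feature between SEC7 and HSP42, tRNA-Ala at 400 bp between SEN34 and BUD14, tRNA-Ile at 433 bp between MSS4 and GCD6, and tRNA-Lys at 435 bp between VOA1 and CLB1.

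The tRNA genes of S288C, which are annotated on all chromosomes, allow the same question for each interval. Of the 11 intervals with a TKP/TY feature in W303 alone 11 held a tRNA gene in S288C (interval 71.5 to 100), so the gene stands there in a strain without the element. Of the 34 with a Ty in both 31 held one (91.2%, interval 76.3 to 98.1), and of the 8 with a Ty in S288C alone 7 did (87.5%, interval 47.3 to 99.7). Over all 5471 intervals the share was 4.51%, and over those with no Ty in either strain 3.65%. The 11 intervals held 16 tRNA genes, 4 of them for tRNA-Lys. Intervals that hold tRNA genes have other properties, such as length, whose part in these shares was not tested.

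**Figure D5:**
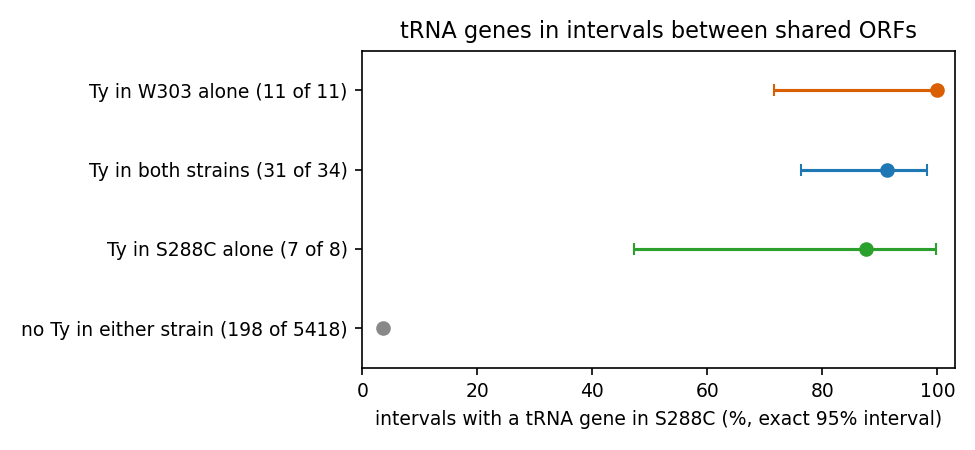
Percentage of intervals between shared ORFs that hold a tRNA gene in S288C, with exact binomial 95% intervals, by where a Ty was found. The 3 classes with a Ty lie between 87.5% and 100%, and the 5418 intervals without one at 3.65%.

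Long terminal repeats, which stay behind when an element is lost by recombination, were present in S288C in 9 of the 11 intervals with a TKP/TY feature in W303 alone (81.8%, interval 48.2 to 97.7). The share was 3.31% over all intervals and 2.4% over the intervals with no Ty in either strain. All 11 intervals also held a tRNA gene, whose part in this share was not tested. Whether the repeats come from the same elements was not tested either. In S288C the intervals that hold a Ty contain the repeats of that element, so all 34 and all 8 of them had some.

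Some TKP/TY features stood where ORFs are repeated or their order is changed. On chromosome 14, 4 features of 1269, 1128, 2724 and 528 bp lay between 2 copies of VAC7, a gene of vacuolar lipid signalling. The first copy had 2508 bp and the second 3498 bp, the S288C length. On chromosome 2, features of 1692 and 1281 bp lay between a copy of ZTA1 and a copy of GIP1, a meiosis gene. The first of 3 GIP1 copies had 1347 bp and the other two 1920 bp, the S288C length, and both copies of ZTA1 had 1005 bp. On chromosome 7, 1 feature of 1323 bp and 1 of 4041 bp lay between MEP1, an ammonium permease gene, and PPT1, where YGR122W, which lies between them in S288C, comes before MEP1 in W303.

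On chromosome 16 the shared ORFs ran in 3 blocks, and TKP/TY features lay at every edge between blocks. The first block, YPL274W to YPL258C with 16 ORFs, was followed by 2 features of 1323 bp. The second, YPR138C to YPR202W with 63 ORFs, was followed by features of 810 and 1323 bp and by 3 Y′ elements, which are repeats found next to telomeres. The third, YPL257W to YPR137W with 364 ORFs, was followed by the 5 features at the right end of the chromosome. In S288C YPL258C and YPL257W are neighbours with the Ty1 element YPLWTy1-1 between them, and YPR137W and YPR138C are neighbours with YPRCTy1-2 between them. Whether this order is that of the strain or of the assembly was not tested.

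The ARS consensus, a short motif of replication origins, was annotated 333 times, and 0 of the 333 overlapped a TKP/TY feature. With 3 counts as the limit of a count of 0, this allows a share of up to 0.901%. That limit takes motifs as independent, which they are not where features are copies of a similar sequence. At their mean density over the nuclear genome 4.46 would fall on the bases of TKP/TY features, with the same limit. Of the 333 motifs 85 overlapped an ORF, or 25.5%, and ORFs cover 67.9% of the nuclear bases.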

How the data were processed

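Per the supplementary methods of the study, the authors annotated the W303 assembly ASM216351v1 with the Yeast Genome Annotation Pipeline and BLAST, and labelled unidentified genes similar to gag and pol as TKP/TY. The deposited values are the first and last base of each feature, counted from 1, and carry no error. Processing notes of the submitters name BWA, SAMtools, MACS2, bedtools, deepTools, ChIPseeker and R64, without versions. No library data were used here.

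Features were read with Python 3.11.15, and exact intervals were computed with scipy 1.17.1. Because the features have no strand, pairs were read by order in place of the planned strand. S288C ORFs (ATG to stop, at least 600 bp) were read inside the 50 Ty elements of the R64 reference. W303 and S288C were matched by gene name and each build kept its own coordinates. An S288C element was placed in an interval by its middle. Counting of pairs and loci was tested on simulated data.

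Named items are the likely full elements, the 3 longest and shortest features, the 3 loci nearest an end, nearest a centromere and with most features, loci with S288C flanks, the 5 nearest tRNA genes and a list of Ty host genes. The members and lists were chosen with earlier results of these data known. The repeated and reordered sites and the sites found in 1 strain were chosen after their values were seen. The alternatives were other size classes, gaps, distances and sets of loci.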

Additional observations from a re-analysis of the deposited data

How the results depend on the processing

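Of 41 alternative values for 16 results, 27 stayed close to the value reported (within 1.5 times, or for a percentage within its interval) and 14 moved further. Wide size classes left 5 features between gag and pol, against 11, and narrow classes called 9 features short, against 5. The pairs, and with them the likely full elements, numbered 1 with a gap of up to 50 bp, 7 with up to 1000 bp and 1 with narrow classes, against 4, because narrow classes leave out the features of 873 bp. The 7 pairs include pairs that share a feature on chromosome 10, so they are not 7 separate elements. Joining at 200 or 5000 bp gave 79 or 54 loci, against 68. The median distance to the centromere was 507843 bp for the likely full elements alone, against 203921 bp, and 145279 bp without chromosome 16. Within 10000 bp of a centromere lay 1 locus and within 50000 bp 10, against 4 within 20000 bp. The 1 locus is that of chromosome 6, where the place of the annotated centromere was not checked. At least 1 flank was shared with an S288C Ty element for 47 loci, against 31. Within 1000 bp of a tRNA gene were 30% of loci and within 5000 bp 73.3%, against 50%. The settings without chromosome 16, with the shared ORF names, with orientations not read from room and with the lengths and gap of an S288C element were chosen after seeing the data. Joining features of the same strand could not be run, since none has a strand. No paired analysis was possible because the annotation holds no value for any replicate. Positions rest on a single assembly, so a misassembled repeat would change them, and no depth stands behind them.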

Other observations

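Host genes of Ty elements were present in the W303 annotation. All 20 genes of a list of RNA polymerase III factors, transcription factors of Ty and genes that control transposition had a feature, and 19 of the 20 had the length of the S288C gene. Over all nuclear ORFs on the S288C chromosome of their name this share was 90.9%, which is near that of the list. The exception was GCR1, a transcription factor gene, with 2535 bp in W303 and 3109 bp in S288C. The S288C value is the span of the gene on the chromosome, any intron included, so it need not be the length of an ORF. Whether the coding sequence differs was not tested. Of the 20 BDP1, which encodes a subunit of the RNA polymerase III factor TFIIIB, lay nearest to a TKP/TY locus, at 5554 bp, followed by MCM1, a regulator of Ty transcription, at 6573 bp. RPC40, a subunit shared by RNA polymerases I and III that directs Ty1 integration, lay 58505 bp from the nearest locus.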
